A study of Mus musculus with 18 samples.

Results

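Ileum libraries from 6 IEC-*Ppara* homozygous mice were set against those from 6 IEC-*Ppara* heterozygous mice, so that the comparison asks what a second copy of the *Ppara* transgene adds to the first. The 12 libraries were taken by the genotype in the sample labels, out of 18 in the series, and each came from 1 mouse. The remaining 6 libraries were from control mice and serve here as the level without the active transgene. Genes with more than 3 CPM (a gene's share of all counts of its library, scaled so that the shares of a library sum to the same total) in at least 4 of the 12 libraries were compared, which kept 13401 of 55487 genes, of which 12441 are protein-coding.

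The CAG-*Ppara*,-*EGFP* transgene carries *Ppara* and *EGFP* behind the ubiquitous CAG promoter at the *Col1a1* locus, in reverse orientation until Cre inverts it between a pair of mutant lox sites, and the strain descends from 1 targeted clone on a C57BL/6J background. IEC-*Ppara* mice also carry *Villin-CreERT2*, a tamoxifen-activated Cre that the *Villin* promoter restricts to the intestinal epithelium, so that heterozygous mice hold a single transgene allele and homozygous mice hold a pair. The controls lack Cre, and the number of transgene alleles in each control mouse is not given in the labels. All 3 groups ate chow, received tamoxifen at 100 mg/kg on 3 days at 8 to 13 weeks of age and were collected 2 weeks later. There were 2 female and 4 male mice at each transgene dose. Whole-thickness tissue was used, so that a library mixes epithelium with muscle, nerve, stroma and immune cells, and fewer cells of a type cannot be told apart from less RNA per cell.

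PPARα is a nuclear receptor that is switched on by fatty acids and binds DNA with the retinoid X receptor RXR. In the small intestine its targets serve fatty acid uptake, binding and oxidation and the making of ketone bodies. The sites it binds are built from a pair of AGGTCA-like half-sites in the same orientation with 1 base between them.

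The counts summed to between 39475524 and 49348797 per library, at which 3 CPM stands for 118 to 148 counts. *Esr1*, the estrogen receptor α gene, a part of which is fused to Cre in *CreERT2*, separated IEC-*Ppara* libraries from controls, with 67.4 to 92.8 CPM against 2.34 to 7.84 CPM. Its log2 difference between homozygous and heterozygous libraries was -0.10 ± 0.18 (SE). The epithelial gene *Vil1* lay between 2088 and 2949 CPM in the 12 libraries, and 10 of 11 enterocyte markers passed the filter. The libraries differed in the levels of markers of other cell types. The mean log2 CPM of 10 smooth muscle markers ran from 5.11 to 7.61 in heterozygous and from 7.60 to 8.72 in homozygous libraries, and heterozygous replicate 3 was the lowest. All 10 of these markers were higher in homozygous libraries, with a median log2 difference of 0.74, and 1 of them, *Tagln*, had an unadjusted p under 0.05, at which 3.65% of all genes were higher. The B cell markers, of which 3 of 11 passed the filter, were high in heterozygous replicate 2 (mean log2 CPM 5.48) and homozygous replicate 1 (3.91) and lay between 1.38 and 2.36 in the other 10 libraries. Among the controls, replicates 2 and 3 were high in these markers (6.18 and 5.96). The results were therefore also computed with either score as a covariate and without heterozygous replicate 2 and homozygous replicate 1. These 2 are called the pair of libraries high in B cell markers below.

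**Figure D1:**
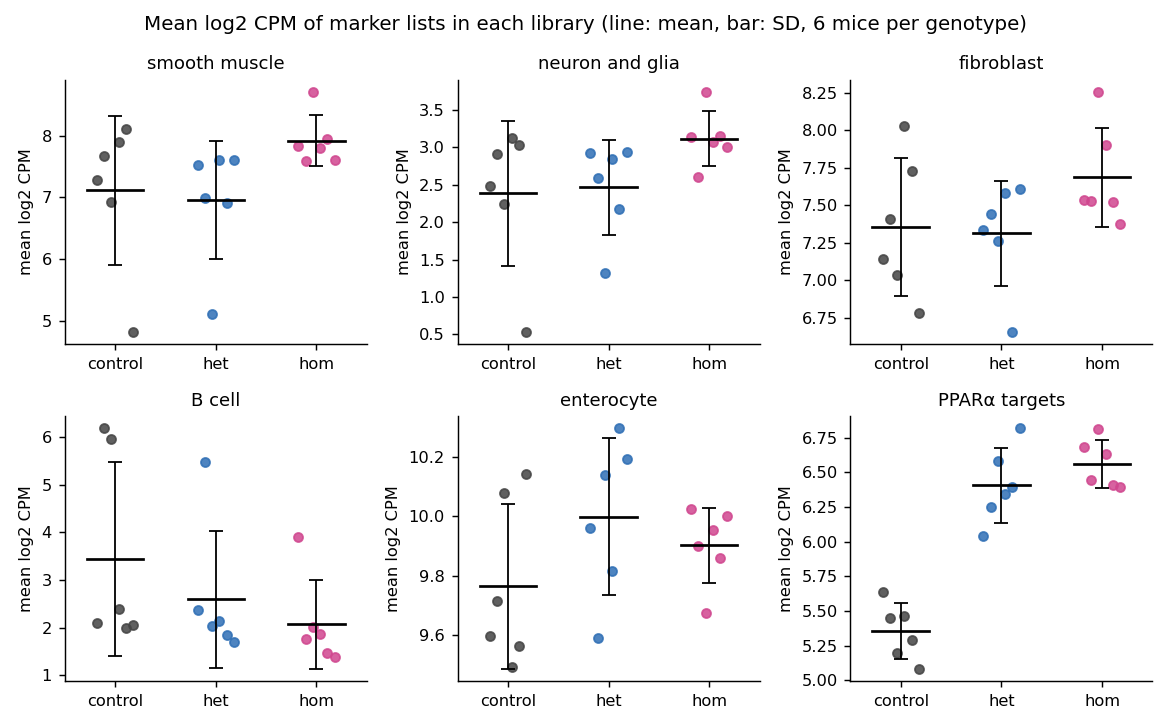
Mean log2 CPM of 5 marker lists and of the PPARα target list in each library, by genotype, with 1 point per mouse, the group mean as a line and 1 SD as a bar. The smooth muscle score is lowest in 1 control (4.81) and 1 heterozygous library (5.11) and highest in 1 homozygous library (8.72). The B cell score stands out in 1 library of each IEC-*Ppara* group and is highest in control replicates 2 and 3 (6.18 and 5.96).

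*Ppara* followed the transgene dose. The level was 37.1, 41.7, 31.2, 47.4, 25.8 and 45.5 CPM in the controls. It was 107, 122, 149, 108, 164 and 196 CPM in the heterozygous libraries. It was 216, 184, 184, 206, 279 and 231 CPM in the homozygous libraries. All 12 IEC-*Ppara* libraries lay above every control, and between the doses only the highest heterozygous library reached into the homozygous range. The means were 141 ± 35.4 CPM in heterozygous and 216 ± 35.5 CPM in homozygous mice (SD, n = 6 each), a ratio of 1.53 with a two-sided exact permutation p of 0.00649, where 0.00216 is the smallest p that 6 against 6 libraries allow. Above the control mean, the excess was 103 CPM with 1 allele and 178 CPM with 2 alleles, which is 1.73 times as much. Per 1000 CPM of *Vil1*, a ratio chosen after the data were seen, *Ppara* stood at 53.4 ± 13.8 in heterozygous and 88.1 ± 14.3 in homozygous libraries (exact permutation p = 0.00433). In the fit across all genes the log2 difference was 0.59 ± 0.17 (SE) with an adjusted p of 0.503. The counts do not separate transgene from endogenous *Ppara* (chr15:85734983-85802819 of GRCm38). *Col1a1*, the insertion locus, ranged from 203 to 613 CPM in heterozygous and from 480 to 1125 CPM in homozygous libraries (adjusted p = 0.658). Split by sex after the data were seen, the log2 difference of *Ppara* was 1.04 in females (2 against 2) and 0.39 in males (4 against 4), and that of *Fabp1* 1.05 and 0.27. Neither difference between the sexes passed in edgeR's test of sex by dose (adjusted p = 0.96 for both), which called 0 genes, with 491 at an unadjusted p under 0.05.

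**Figure D2:**
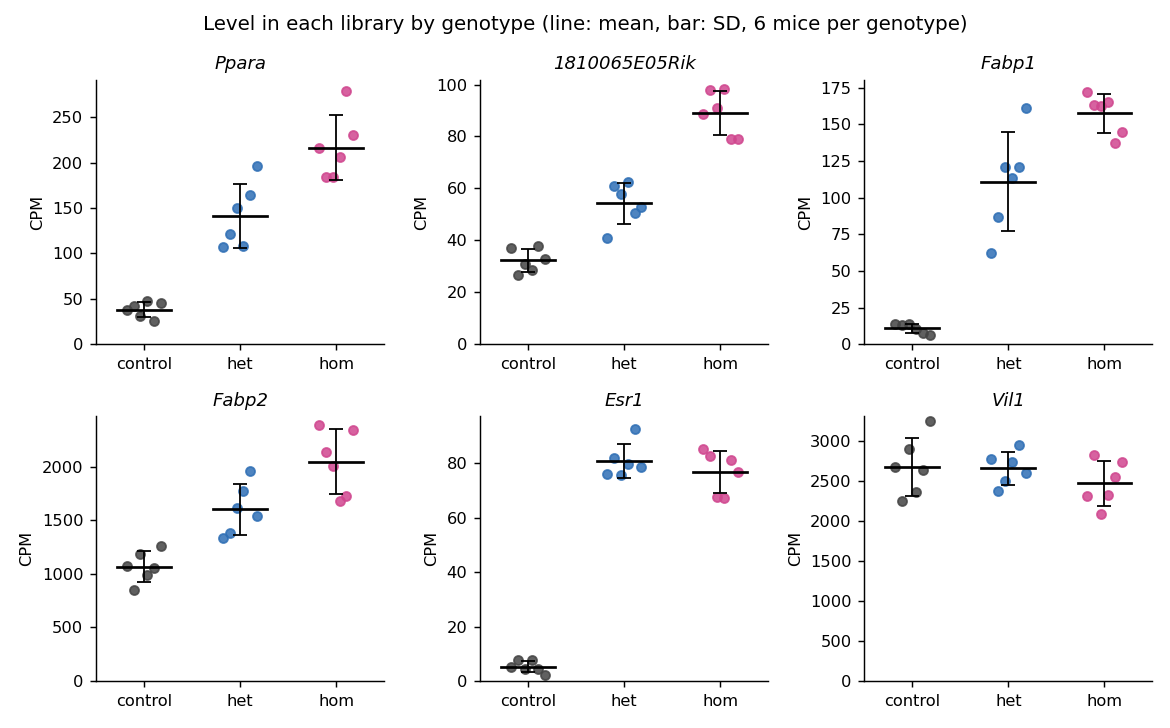
CPM of 6 genes in each library by genotype, with 1 point per mouse, the mean as a line and 1 SD as a bar. *Ppara* and *1810065E05Rik* step up at each dose, *Fabp1* takes most of its rise in CPM at the first, *Fabp2* overlaps between the doses, *Esr1* overlaps between the doses, and *Vil1* overlaps in all 3 groups.

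Across the 13401 genes, few differed between the doses past the spread between mice. By edgeR's quasi-likelihood test 1 gene passed an adjusted p of 0.05 (0.00746% of those tested), higher in homozygous mice, and 0 were lower by that threshold. At an unadjusted p under 0.001, 5 genes were higher (0.0373%) and 16 were lower (0.119%). At an unadjusted p under 0.05, 489 genes were higher (3.65%) and 508 were lower (3.79%). Every homozygous library lay above every heterozygous library for 18 genes (0.134%) and below for 17 genes (0.127%). The median log2 difference over all genes was 0.00. DESeq2 called 12 genes at an adjusted p of 0.05, 1 higher and 11 lower. The number at an unadjusted p under 0.001 rested on single libraries. It was 49 without homozygous replicate 1 and 43 without heterozygous replicate 4, against 11 without heterozygous replicate 3, 12 without heterozygous replicate 5, 11 without homozygous replicate 3 and 8 without homozygous replicate 5. With the smooth muscle score as a covariate it was 8. The shares of all genes at an unadjusted p under 0.05 also moved. They were 1.42% higher and 2.28% lower with the smooth muscle score, and 3.61% and 3.78% with the B cell score. They were 1.71% and 2.87% without heterozygous replicate 3, and 3.48% and 5.50% without the pair of libraries high in B cell markers. Counts of list members under these alternatives, given below, stand beside these shares.

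The gene that passed was *1810065E05Rik* (ENSMUSG00000013653, chr11:58421111-58426024 of GRCm38), a protein-coding gene. Its level was 40.8, 60.7, 58.0, 62.3, 50.7 and 52.8 CPM in the heterozygous libraries. It was 88.8, 98.1, 91.1, 98.3, 79.0 and 79.0 CPM in the homozygous libraries. The controls held 26.8 to 37.8 CPM, so that the 3 groups did not overlap. The gene rose by a log2 fold change of 0.69 ± 0.11 (SE, 95% interval 0.47 to 0.92, edgeR adjusted p = 0.0463), and the step from control to heterozygous was 0.78. The steps did not differ past the spread (log2 difference 0.08 ± 0.18, adjusted p = 0.939). The call is a narrow one. The adjusted p was under 0.05 in 7 of 25 alternative analyses, in a range from 5.49e-06 with DESeq2 to 0.575 with the replicate number as a block, and in 2 of the 12 that left out a library, while the log2 fold change stayed between 0.63 and 0.74.

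Since the gene stepped up with each transgene allele, the 250 bases before its RefSeq start were read for the half-site, beside those of *Fabp1*, the PPARα target that separated the steps most clearly, and of *Igsf23*, a gene that was lower in homozygous libraries. The searched motif was the half-site AGGNCA, any 1 base, and AGGNCA again, on both strands, and the single half-site AGGTCA on both strands, where N is any base. Capitals mark the matches. The windows are chr11:58420861-58421110 (+ strand) for *1810065E05Rik*, chr6:71199629-71199878 (+ strand) for *Fabp1* and chr7:19950744-19950993 (- strand) for one of the starts of *Igsf23*, all of GRCm38.p6, and each is printed 5′ to 3′ on the strand of its gene.
1810065E05Rik: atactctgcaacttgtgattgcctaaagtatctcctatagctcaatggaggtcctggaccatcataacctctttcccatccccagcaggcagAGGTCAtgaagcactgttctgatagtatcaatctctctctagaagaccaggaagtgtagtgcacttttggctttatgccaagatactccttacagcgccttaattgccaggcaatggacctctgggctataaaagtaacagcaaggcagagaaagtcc
Fabp1: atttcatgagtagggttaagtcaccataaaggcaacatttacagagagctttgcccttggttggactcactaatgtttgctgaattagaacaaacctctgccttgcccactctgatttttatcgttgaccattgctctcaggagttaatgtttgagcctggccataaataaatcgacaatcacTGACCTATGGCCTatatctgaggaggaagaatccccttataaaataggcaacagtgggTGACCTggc
Igsf23: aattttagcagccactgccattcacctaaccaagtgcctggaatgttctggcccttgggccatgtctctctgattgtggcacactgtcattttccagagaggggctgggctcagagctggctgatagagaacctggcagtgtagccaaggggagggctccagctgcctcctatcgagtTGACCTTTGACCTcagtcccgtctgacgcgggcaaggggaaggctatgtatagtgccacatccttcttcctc
The window of *1810065E05Rik* holds 1 single half-site, starting 158 bases before the start, and no match to the paired motif. *Fabp1* holds the paired motif 67 bases and *Igsf23* 72 bases before the start, as TGACCTATGGCCT and TGACCTTTGACCT. *Fabp1* holds a further single half-site near its start. A second start of *Igsf23* holds neither. The paired motif was found in 0.338% of 32851 such windows of 27025 genes, and the half-site in 14.0%. Among 27 of the 34 tested PPARα targets that matched the table, *Fabp1* alone held the paired motif. *Igsf23* was picked for its match, as the only holder among 11 matched genes of the 12 lower ones with the lowest p, and 0 of 9 matched genes of the 12 higher ones held it. Such a match is a description of letters and not a site shown to be bound.

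The PPARα targets stood above control with 1 allele, and few of them differed between 1 and 2 alleles past the spread between mice. Of 37 listed targets 34 passed the filter, and all 34 were above control in heterozygous libraries. Their median log2 difference was 0.57, beside 0.003 for all genes. The list was chosen with earlier results of these data known, and the filter read only IEC-*Ppara* libraries. That all 34 point 1 way is therefore partly set in advance. From heterozygous to homozygous 24 were higher and 10 were lower, with a median of 0.07 beside 0.00 for all genes. That median ran from 0.019 without heterozygous replicate 1 to 0.14 without heterozygous replicate 6, and was 0.01 without the pair of libraries high in B cell markers. At an unadjusted p under 0.05, 2 were higher (*Fabp1* and *Fabp2*) and 0 were lower, against 3.65% and 3.79% of all genes, and none passed the adjusted threshold (lowest adjusted p 0.654). The 2 became 5 without heterozygous replicate 3, 3 with the smooth muscle score as a covariate and 0 without that pair. The share of all genes that was higher in these fits was 1.71%, 1.42% and 3.48%. The score over the list spanned 5.08 to 5.64 (mean log2 CPM) in controls, 6.04 to 6.82 in heterozygous and 6.40 to 6.82 in homozygous libraries, so that the doses overlapped. The 2 steps share the heterozygous libraries, and the values are given side by side for that reason.

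*Fabp1*, the liver-type fatty acid binding protein of enterocytes, held 62.5, 86.6, 121, 113, 121 and 161 CPM in heterozygous libraries. It held 172, 163, 163, 165, 137 and 145 CPM in homozygous libraries, against 6.30 to 14.1 CPM in controls. Only the highest heterozygous library reached into the homozygous range. The second step was 0.48 ± 0.20 on the log2 scale (unadjusted p = 0.0281, adjusted p = 0.654), after a first step of 3.41. *Fabp2*, the intestinal fatty acid binding protein, stood at 1335 to 1963 CPM (median 1580) in heterozygous and 1681 to 2395 CPM (median 2075) in homozygous libraries, with steps of 0.62 and 0.33 ± 0.14 (unadjusted p = 0.0264), the second of which was 0.43 with the smooth muscle score as a covariate. *Pdk4*, a kinase that turns down glucose oxidation, had medians of 7.72, 65.9 and 88.8 CPM with a second step of 0.44 (95% interval -0.38 to 1.27), which was 0.00 with the smooth muscle score as a covariate. *Aqp3*, a water and glycerol channel, had medians of 1.60, 14.5 and 20.5 CPM, and its second step was 0.49 ± 0.24, which was 0.78 with that covariate (unadjusted p = 0.00165). *Cyp4a10*, a fatty acid ω-hydroxylase, went from at most 8 counts in a control library to 91 to 547 counts in heterozygous and 141 to 517 counts in homozygous libraries. The 95% intervals of the second step of *Pdk4*, *Aqp3* and *Cyp4a10* include 0, and their upper ends lie between 0.99 and 1.27 on the log2 scale.

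For 29 targets at least 1.2-fold above control in homozygous libraries, the heterozygous mean had covered a median of 76.3% of the rise in CPM, with a range from 19.3% to 135%. For *Ppara* itself it was 57.8%, and 25 of the 29 targets had a larger share than that. Of the 29, 28 were past 50%, and 6 were past 100%, such as *Creb3l3*, a transcription factor of lipid handling, with means of 225 ± 57.3 CPM in heterozygous and 199 ± 31.5 CPM in homozygous mice. The SD of log2 CPM was larger in heterozygous than in homozygous libraries for 29 of the 34 targets, against 57.1% of all genes tested. The targets were measured in the same 6 mice per dose and are not independent. The SD of their mean score was 0.269 in heterozygous and 0.173 in homozygous libraries, and the difference in spread was not tested. Heterozygous replicate 1, with the lowest *Ppara* (107 CPM), also had the lowest target score (6.04), and heterozygous replicate 6, with the highest (196 CPM), had the highest (6.82). The order did not hold throughout, since heterozygous replicate 5, at 164 CPM, scored 6.39 and replicate 3, at 149 CPM, scored 6.59. Among homozygous libraries replicate 5, with the highest *Ppara* (279 CPM), had a score of 6.41, and replicate 3, at 184 CPM, had the highest (6.82).

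**Figure D3:**
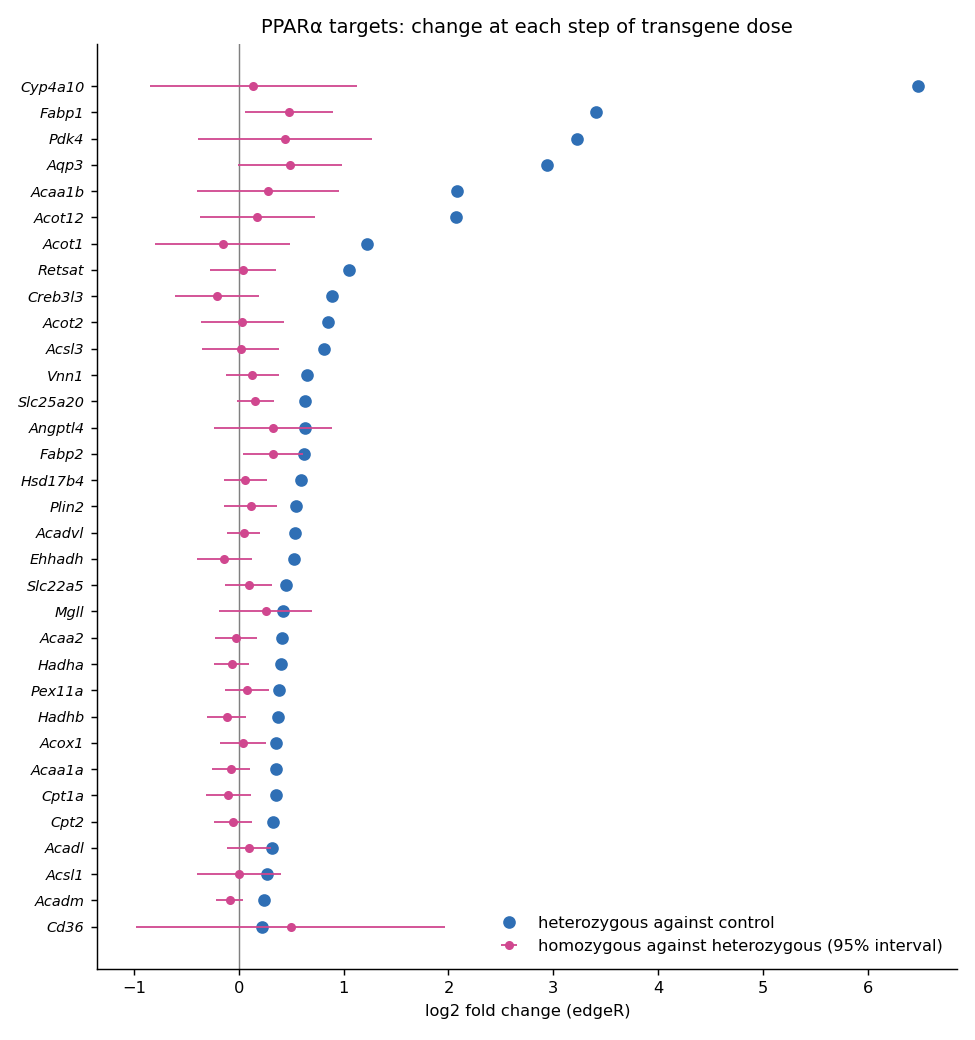
Log2 fold change of 33 of the 34 tested PPARα targets from control to heterozygous (blue) and from heterozygous to homozygous (pink, with 95% intervals from edgeR), ordered by the first. Every first step is above 0, while the second steps scatter around 0 with a median of 0.07 over the 34.

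Enzymes of fatty acid oxidation lay on both sides of 0 at the second step. Of 21 mitochondrial β-oxidation genes 6 were higher and 15 were lower in homozygous libraries (median log2 difference -0.06), after a median first step of 0.30, and 3 of them were lower at an unadjusted p under 0.05, as were 3.79% of all genes. There was 1 lower and 1 higher with the smooth muscle score as a covariate, beside 2.28% and 1.42% of all genes. Without heterozygous replicate 3 there were 0 lower and 1 higher, and with the B cell score as a covariate 0 of either. Without the pair of libraries high in B cell markers 3 were lower and 0 higher, beside 5.50% and 3.48% of all genes. Of 21 peroxisomal genes 8 were higher and 13 were lower (median -0.03 after 0.35), and none reached that threshold. Of 16 genes for PPARs, RXRs and coregulators 4 were higher and 12 lower (median -0.02).

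Whether the first and second step differ was tested for every gene as 1 contrast. At an adjusted p of 0.05, 7 genes had a more positive first than second step (0.0522% of those tested), and 0 had a more negative one. At an unadjusted p under 0.05 the numbers were 515 (3.84%) and 219 (1.63%). The filter read only the 12 IEC-*Ppara* libraries, so that genes near 0 in controls could enter and genes high in controls alone could not. With the filter over all 18 libraries, chosen after the data were seen, the numbers were 7 and 0, and 530 and 226. With scaling by library size in place of TMM factors they were 7 and 0, and 297 and 363. The excess of more positive first steps at the unadjusted threshold was thus reversed under that scaling. With DESeq2 the numbers were 15 and 2, and 501 and 288. Of the 34 PPARα targets 33 had the more positive first step and 24 of them passed the unadjusted threshold, with none the other way. The direction is partly set by the scale, since an equal rise in CPM with each allele gives a larger first step in log2, and *Ppara* itself had a step difference of 1.33 ± 0.29 (unadjusted p = 0.00023, adjusted p = 0.281). The 7 genes fell into targets and non-targets. *Fabp1* (step difference 2.93 ± 0.34 on the log2 scale, adjusted p = 0.000267), *Cyp4a10* (adjusted p = 0.00484) and *Aqp3* (adjusted p = 0.0173) are PPARα targets. *Aqp3* lost its call without heterozygous replicate 3, 4, 5 or 6 (adjusted p up to 0.094) and with the replicate block, and *Cyp4a10* lost it with limma-voom and with the block. With the block 4 genes were called in all, so that these were not the only calls lost. *Esr1*, *Gm13394*, *BC064078* and *Clec2j* are the other 4, of which the last 3 are annotated as pseudogenes. *Gm13394* (chr2) held 2.30 to 3.07 CPM in controls and 29.6 to 41.9 CPM in both IEC-*Ppara* groups, and *BC064078* and *Clec2j* (chr6) held at most 1.75 CPM in controls and 1.13 to 6.81 CPM in IEC-*Ppara* libraries. Between the doses these 4 differed by -0.14 to 0.13 on the log2 scale, with adjusted p from 0.673 to 0.981. *Cyp2c66*, a fatty acid epoxygenase of the intestine, followed with 2.48 ± 0.47 (adjusted p = 0.0917).

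In the opposite direction, the 8 genes with the lowest p included *Fam98b*, *Zgrf1*, *Mms22l*, *Cpsf3*, *Tap2*, *Rab8b* and *Tyro3*, with adjusted p from 0.446 to 0.694. They were lowest in heterozygous libraries. *Zgrf1*, a DNA helicase, had medians of 4.05 CPM in controls, 2.96 in heterozygous and 4.01 in homozygous libraries. *Mms22l*, which acts in repair of stalled replication forks, had medians of 9.05, 6.61 and 7.45 CPM. *Tap2*, the peptide transporter of MHC class I loading, had medians of 43.2, 32.3 and 38.0 CPM. Of 20 cell cycle genes 17 were higher in homozygous than heterozygous libraries (median 0.06) after a median first step of -0.18, and none reached an unadjusted p of 0.05 at the second step.

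The 12 genes lower in homozygous libraries with the lowest p were *Faah*, *Rragd*, *Bche*, *Pipox*, *Rnf180*, *Igsf23*, *Aqp1*, *Ighv5-9-1*, *Myom3*, *Pcbp2*, *Tjap1* and *Mlxipl*. Their unadjusted p was at most 0.000744 and their edgeR adjusted p lay between 0.296 and 0.503. For 5 of them every homozygous library lay below every heterozygous one, as for 0.127% of all genes. The 12 were picked by p in these same libraries, so that this count is no separate result. *Faah*, the hydrolase that breaks down anandamide and oleoylethanolamide, a PPARα ligand, led the list. It held 107, 125, 132, 102, 105 and 123 CPM in heterozygous and 98.6, 80.7, 79.1, 94.3, 84.2 and 96.5 CPM in homozygous libraries, so that every homozygous library was below every heterozygous one. The log2 difference was -0.40 ± 0.08 (adjusted p = 0.296), while the first step was 0.10. Among 12 genes of endocannabinoid and acylethanolamide metabolism it was the only one at an unadjusted p under 0.05 (3.79% of all genes were lower), and the list median was 0.09. Without the pair of libraries high in B cell markers 2 of the 12 were lower, beside 5.50% of all genes.

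*Rragd*, a GTPase that relays amino acid and lysosome signals to mTORC1, had medians of 28.3 CPM in heterozygous and 16.6 CPM in homozygous libraries (log2 difference -0.71 ± 0.14, adjusted p = 0.388), and only heterozygous replicate 4 (19.1 CPM) lay in the homozygous range. *Bche*, butyrylcholinesterase, held 48.3 to 75.8 CPM against 39.2 to 48.2 CPM, without overlap (-0.53 ± 0.11). *Pipox*, a peroxisomal oxidase of pipecolic acid and sarcosine, held 17.9 to 23.8 CPM against 12.5 to 19.4 CPM (-0.55 ± 0.12). Without homozygous replicate 1, which holds the 19.4 CPM, *Pipox* passed the adjusted threshold (adjusted p = 0.0375). *Igsf23*, an immunoglobulin superfamily gene, held 118 to 173 CPM against 86.7 to 126 CPM (-0.51 ± 0.12), with 110 to 131 CPM in controls. *Aqp1*, the water channel, held 179 to 202 CPM against 148 to 180 CPM (-0.28 ± 0.06). *Ighv5-9-1*, an antibody heavy chain variable segment, held 25 to 365 counts against 7 to 65 counts, and its reads can be shared with near-identical segments. It passed the filter through heterozygous libraries alone, since its highest homozygous level was 1.51 CPM. For *Rnf180*, *Myom3* and *Tjap1* the groups did not overlap, with differences of -0.48, -0.53 and -0.28, and for *Pcbp2* the difference was -0.20. All 12 stayed lower in each alternative that tested them, which was 23 of 25 for *Ighv5-9-1* and all 25 for the other 11. With DESeq2, which called 12 of the 13401 genes, 9 of them passed an adjusted p of 0.05. The alternatives read the same libraries from which these genes were picked, so that they are no separate support.

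The 12 genes higher in homozygous libraries with the lowest p were *1810065E05Rik*, *Ret*, *Fam98b*, *Tyro3*, *Hoxc9*, *Plekho2*, *Gli3*, *Slc6a14*, *Tac1*, *Rtn4rl1*, *Srf* and *Mal*, and but for the first the adjusted p was 0.503. The largest difference was that of *Slc6a14*, a transporter of neutral and cationic amino acids. It held 2.53, 5.26, 4.68, 17.4, 3.14 and 1.49 CPM in heterozygous libraries. It held 11.8, 75.1, 39.4, 46.9, 64.3 and 59.8 CPM in homozygous libraries. The controls spanned 0.478 to 44.7 CPM, so that the homozygous levels were high against the heterozygous ones and overlapped with the controls (log2 difference 3.10 ± 0.83). *Ret*, the GDNF receptor kinase of enteric neurons, held 19.8 to 24.9 CPM against 23.9 to 40.3 CPM (0.49 ± 0.12). *Tac1*, the precursor of substance P, held 5.55 to 7.85 CPM against 7.92 to 11.0 CPM (0.44 ± 0.12), and *Mal*, a membrane protein of apical transport and myelin, 3.86 to 8.76 CPM against 8.82 to 23.3 CPM (1.04 ± 0.29), both without overlap. *Srf*, the transcription factor of smooth muscle and immediate early genes, held 75.7 to 100.7 CPM against 98.2 to 119 CPM (0.27 ± 0.08). *Gli3*, a transcription factor of Hedgehog signalling in the gut wall, differed by 0.90 and the homeobox gene *Hoxc9* by 0.96.

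Neuron and glia markers lay in the same direction as the muscle markers, and the part of these cells in the results was not tested beyond the values given here. Of 10 tested 9 were higher in homozygous libraries, with a median log2 difference of 0.62, and 2 (*Ret* and *Sox10*) at an unadjusted p under 0.05, as were 3.65% of all genes. Their score ran from 1.32 to 2.93 in heterozygous and from 2.60 to 3.74 in homozygous libraries. The 10 fibroblast markers were all higher (median 0.33). With the smooth muscle score as a covariate the median of the neuron and glia list was -0.11 and that of the fibroblast list 0.11. The differences of *Ret*, *Gli3* and *Hoxc9* were then 0.35, 0.59 and 0.67, those of *Slc6a14*, *Mal* and *1810065E05Rik* 2.86, 1.15 and 0.74, and those of *Faah* and *Rragd* -0.31 and -0.68. That of *Sox10* was 0.13, from 0.80 without the covariate, and those of *Nr1i2* and *Slc6a20a* were -0.13 and -0.23, from -0.20 and -0.38. Plasma cell, T cell and B cell markers had medians of -0.32, -0.26 and -1.07, and the last was 0.32 without heterozygous replicate 2. With 1 library left out the plasma cell median ran from -0.51 to -0.13 and the T cell median from -0.37 to -0.11.

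**Figure D4:**
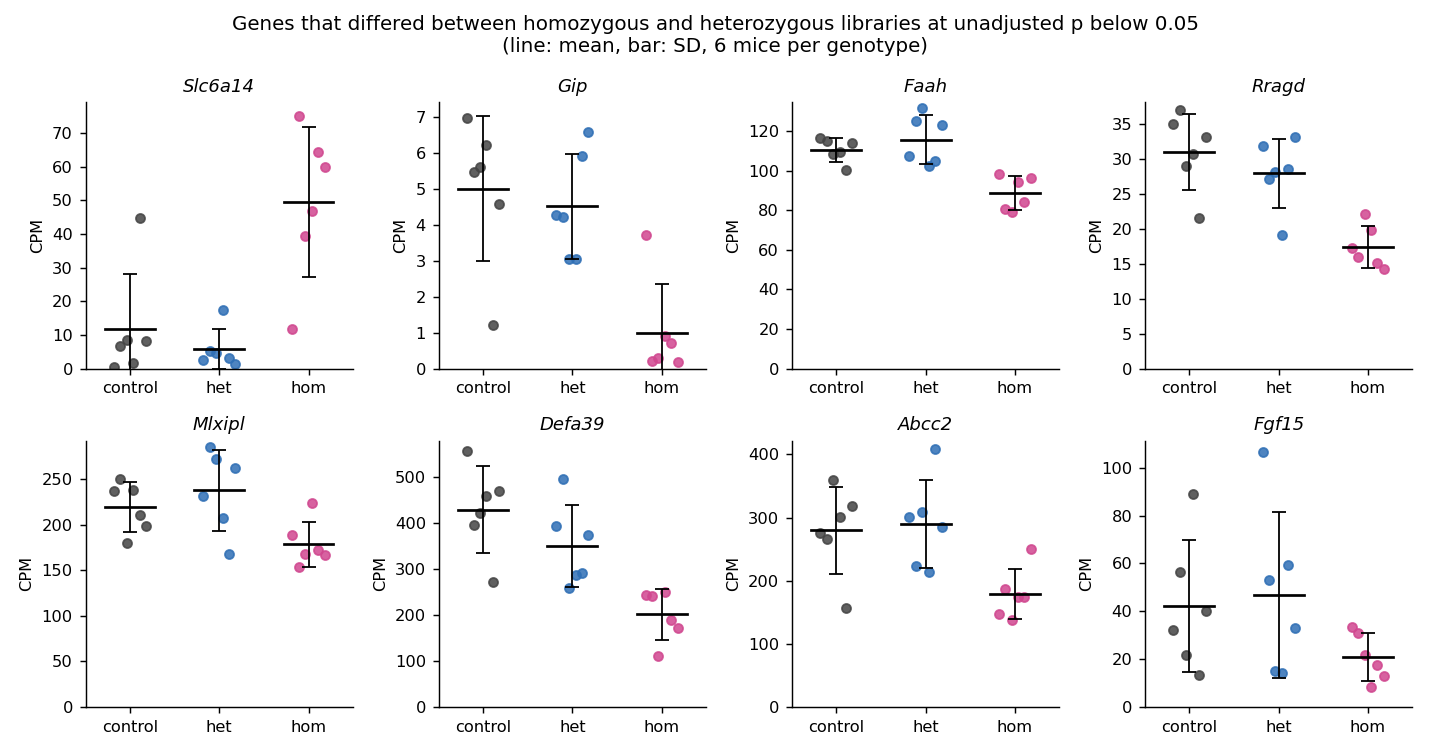
CPM of 8 genes in each library by genotype, with 1 point per mouse, the mean as a line and 1 SD as a bar (bars are clipped at 0). *Slc6a14* is higher in homozygous libraries (11.8 to 75.1 CPM) than in heterozygous ones (1.49 to 17.4 CPM) and the means of the other 7 are lower in homozygous ones.

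Among genes of Paneth cells, which secrete antimicrobial peptides at the crypt base, most had lower levels with the second allele. Of 31 tested 28 were lower and 3 were higher in homozygous libraries, with a median log2 difference of -0.26, and 12 were lower at an unadjusted p under 0.05, where 3.79% of all genes were. None passed the adjusted threshold. Their score lay between 7.72 and 8.13 in heterozygous and between 7.32 and 7.99 in homozygous libraries, so that the groups overlapped. *Lyz1*, Paneth cell lysozyme, held 6512 to 8040 CPM (median 7817) against 4320 to 6480 CPM (median 6161), without overlap, at -0.38 ± 0.11 (unadjusted p = 0.00305). The α-defensin *Defa39* held 259 to 494 CPM against 111 to 249 CPM, without overlap (-0.81 ± 0.21), and *Defa40*, *Defa26* and *Defa29* differed by -0.41, -0.35 and -0.54. *Itln1*, intelectin, differed by -0.25 ± 0.12. The α-defensins are near-identical copies, and only uniquely aligned reads were counted, so that their single values are uncertain and the members are not independent. The bactericidal lectins *Reg3g* and *Reg3b*, which enterocytes also make, pointed the other way with 0.64 and 0.46 (unadjusted p = 0.0655 and 0.116). With the smooth muscle score as a covariate the list median was -0.22. In that fit 7 were lower and 2 higher at an unadjusted p under 0.05, beside 2.28% and 1.42% of all genes. Of 18 stem cell genes 3 were lower at that threshold, *Olfm4*, *Rnf43* and *Shisa2*, with differences of -0.34, -0.32 and -0.76, and the list median was -0.05. Goblet cell (median -0.12 over 9 genes) and tuft cell (median -0.10 over 6 genes) markers had no member at that threshold. With the smooth muscle score as a covariate the goblet median was -0.035. The tuft median ran from -0.18 to -0.039 with 1 library left out.

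Among genes for the handling of drugs and bile acids, some had lower levels and none passed the adjusted threshold. Of 25 tested 19 were lower, the median was -0.21, and 10 were lower at an unadjusted p under 0.05, with none higher, beside 3.79% and 3.65% of all genes. *Abcc2*, the apical export pump MRP2, held 213 to 408 CPM against 137 to 250 CPM (-0.73 ± 0.21, unadjusted p = 0.00233). The cytochromes *Cyp3a11* and *Cyp3a25*, of a family with near-identical members, differed by -1.03 and -0.53, and *Nr1i2*, the xenobiotic receptor PXR that drives such genes, by -0.20 ± 0.08. *Fgf15*, the ileal hormone that turns down bile acid synthesis in the liver, had medians of 43.1 CPM in heterozygous and 19.6 CPM in homozygous libraries, with wide and overlapping ranges of 14.4 to 106 and 8.53 to 33.6 CPM (-1.20 ± 0.51, unadjusted p = 0.0307). That difference ran from -1.38 to -0.77 with 1 library left out. *Fabp6*, the ileal bile acid binding protein, had medians of 3940 and 2717 CPM (-0.48 ± 0.19), and *Slc51a*, a subunit of the basolateral bile acid exporter, of 1069 and 895 CPM (-0.33 ± 0.14). Of 9 genes that mark the distal ileum 7 were lower, with a median of -0.22, and 4 at an unadjusted p under 0.05 (3.79% of all genes). This list shares members such as *Fgf15* and *Fabp6* with the drug and bile acid list, so that it is not a separate result. With the smooth muscle score as a covariate, 5 of the 25 were lower at that threshold and the median was -0.14. Of the 9 distal ileum genes 2 were lower, beside 2.28% of all genes in that fit. With 1 library left out the median of the 25 ran from -0.26 to -0.14 and that of the 9 from -0.30 to -0.12.

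Genes of sugar handling and lipogenesis were mostly lower. Of 22 tested 17 were lower (median -0.16), 5 of them at an unadjusted p under 0.05 (3.79% of all genes) and none higher. The 5 became 3 with the smooth muscle score as a covariate, where 2.28% of all genes were lower. The median was -0.088 without heterozygous replicate 4 and -0.25 without heterozygous replicate 2. *Mlxipl* encodes ChREBP, the transcription factor that answers to glucose and fructose, and held 232, 286, 273, 208, 168 and 262 CPM in heterozygous and 188, 154, 168, 224, 172 and 167 CPM in homozygous libraries. It differed by -0.43 ± 0.11 (adjusted p = 0.503), and the groups overlapped through heterozygous replicate 5 and homozygous replicate 4. The others included *Slc2a2*, the glucose and fructose exporter GLUT2 (medians 21.5 and 14.1 CPM, -1.04 ± 0.38), the fructose enzyme *Tkfc* (-0.34) and *Fbp1* of gluconeogenesis (-0.59). Heterozygous replicate 5 held 49.0 CPM of *Slc2a2*, and the other 5 heterozygous libraries 14.9 to 26.1 CPM.

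Hormone genes of enteroendocrine cells differed in both directions. Of 15 tested 5 were higher and 10 were lower, with 2 and 3 at an unadjusted p under 0.05, beside 3.65% and 3.79% of all genes. There was 1 higher and there were 4 lower with the smooth muscle score as a covariate, beside 1.42% and 2.28% of all genes. Without the 2 libraries high in B cell markers 1 was higher and 6 were lower, beside 3.48% and 5.50% of all genes. *Gip*, the incretin of K cells, was at 3.04 to 6.59 CPM (130 to 284 counts) in heterozygous libraries. It was at 3.72, 0.223, 0.296, 0.893, 0.709 and 0.171 CPM in homozygous libraries, the last of which rests on 8 counts. Homozygous replicate 1 lay in the heterozygous range, and the other 5 lay below it and below every control (1.2 to 6.97 CPM). The log2 difference was -2.20 ± 0.60 (unadjusted p = 0.00185, adjusted p = 0.503), the first step was -0.11, and without homozygous replicate 1 the difference was -3.34 (adjusted p = 0.0290). *Tph1*, which makes serotonin, had medians of 12.7 and 9.99 CPM without overlap (-0.39 ± 0.10), and *Nts*, neurotensin, of 100 and 66.0 CPM (-0.46 ± 0.15), with homozygous replicate 1 again high at 113 CPM. *Gcg*, the proglucagon gene, had medians of 51.2 and 57.1 CPM (0.23 ± 0.11, unadjusted p = 0.0472, and 0.0899 with that covariate), and *Tac1* was higher as given above. Among 4 enteroendocrine transcription factors *Etv1*, which interstitial cells of the gut wall also express, was higher at 0.57 ± 0.17 and 0.35 with the muscle covariate.

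In the list of citrulline, ornithine and polyamine metabolism, *Oat*, *Otc* and *Aldh18a1*, which act in the making of ornithine and citrulline, differed by -0.33, -0.29 and -0.24 and the diamine oxidase *Aoc1* by -0.30. *Ass1* and the polyamine enzyme *Srm* differed by 0.53 and 0.39. All had an unadjusted p under 0.05 and an adjusted p from 0.503 to 0.654. With the smooth muscle score as a covariate *Ass1* differed by 0.15 (unadjusted p = 0.175), *Aldh18a1* by -0.18 (unadjusted p = 0.0992) and *Otc* by -0.18 (unadjusted p = 0.0288). In that fit 2 of the list were higher and 3 lower, beside 1.42% and 2.28% of all genes. Over the 17 genes of that list 3 were higher and 4 were lower at the threshold, beside 3.65% and 3.79% of all genes, and the median was -0.05. Of 23 genes of ion and water transport 4 were lower and 1 was higher at that threshold, beside 3.79% and 3.65% of all genes, and the median of -0.10 was 0.032 with the smooth muscle score as a covariate, with 2 lower and 1 higher. *Cftr*, the chloride channel, held 79.3 to 183 CPM against 63.0 to 102 CPM (-0.69 ± 0.18, unadjusted p = 0.00112). Of 15 amino acid and peptide transporters 8 were higher and 7 lower (median 0.006). At an unadjusted p under 0.05 *Slc6a14* was higher and *Slc6a20a*, a proline transporter, lower (-0.38), beside 3.65% and 3.79% of all genes. Interferon-stimulated genes were higher in 19 of 22 (median 0.17), yet the one at an unadjusted p under 0.05 was *Ifi27l2b*, which was lower (-0.43). The median of that list ran from 0.057 to 0.25 with 1 library left out. With the smooth muscle score as a covariate 2 of its genes were higher and 1 was lower at that threshold. All 9 tested genes of MHC class II presentation were lower (median -0.19, after a first step of -0.68), none at that threshold, and the median was -0.04 without the 2 libraries high in B cell markers. It ran from -0.26 to 0.016 with 1 library left out. Control replicates 2 and 3, also high in B cell markers, had MHC class II scores of 7.34 and 7.14, against 5.58 to 6.21 in the other controls. Cholesterol synthesis (21 genes, median -0.01) and the circadian clock (17 genes, median 0.09) had no member at that threshold. Lipid uptake and chylomicron assembly had 2 of 20 higher (again *Fabp1* and *Fabp2*) with a median of -0.10, and 0 higher and 5 lower without the 2 libraries high in B cell markers. Of 4 tested genes of the proximal intestine 1 was lower at that threshold. Ketone body metabolism (10 genes, median 0.04), enterocyte (10 genes, median -0.12), macrophage and dendritic (9 genes, median 0.27) and endothelial markers (7 genes, median 0.07) had none. The macrophage and dendritic median was 0.018 and the endothelial median -0.014 with the smooth muscle covariate. With 1 library left out these medians ran from 0.071 to 0.35 and from 0.0043 to 0.12. The enterocyte median was 0.0017 with the smooth muscle covariate and -0.27, with 3 of 10 lower, without the 2 libraries high in B cell markers. Without those 2 libraries 3.48% of all genes were higher and 5.50% were lower at that threshold.

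**Figure D5:**
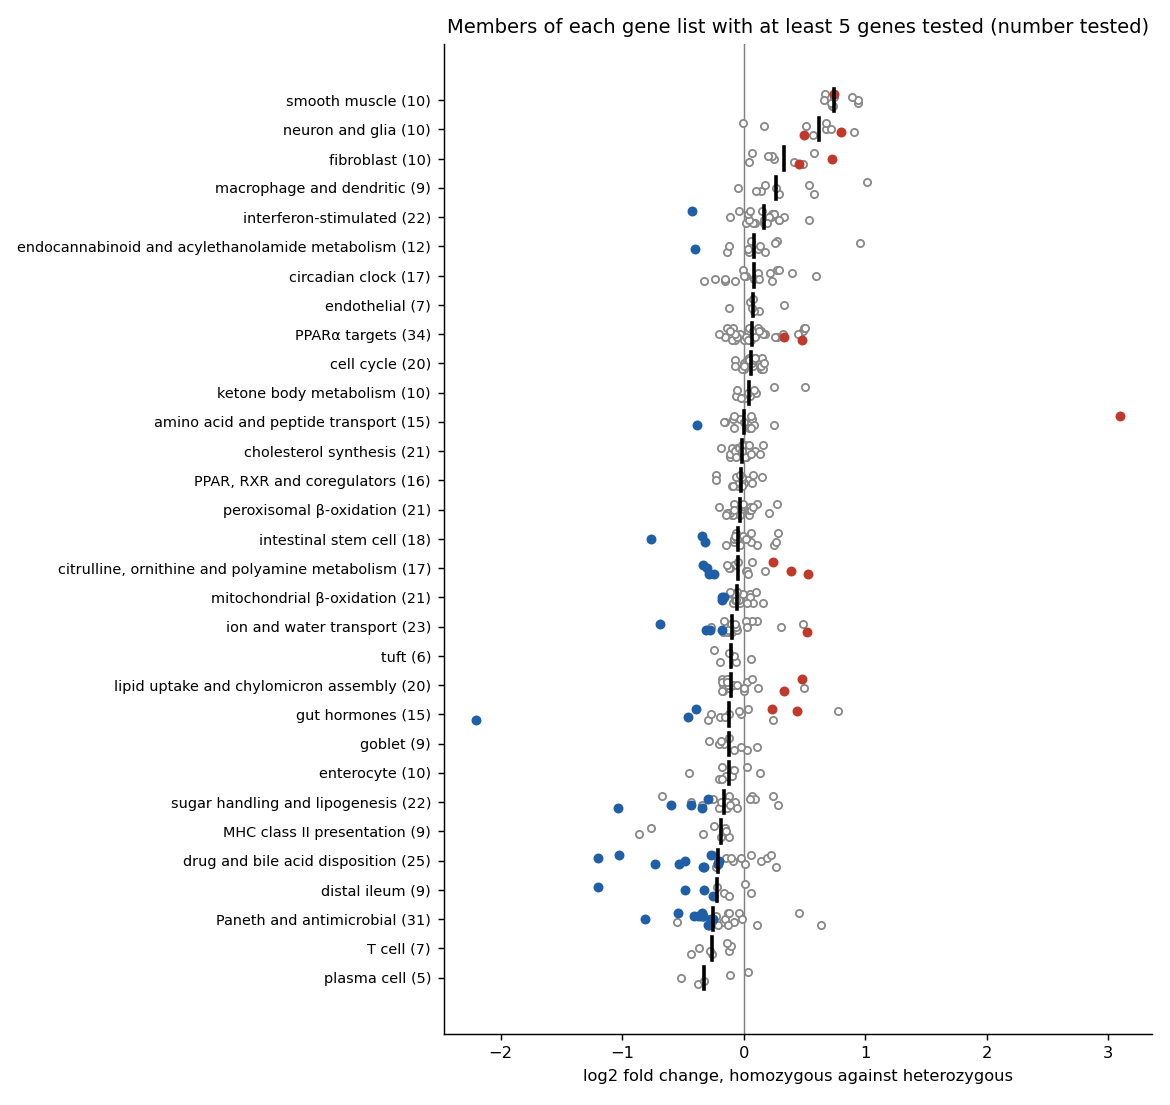
Log2 fold change of each tested member of 31 gene lists between homozygous and heterozygous libraries, with the list median as a bar. Filled points are higher (red) or lower (blue) at an unadjusted p under 0.05 and open points are not. Paneth, bile acid and distal ileum genes lie mostly below 0, and muscle, nerve and fibroblast markers above. The bile acid and distal ileum lists share members.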

How the data were processed

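Poly-A RNA from whole-thickness ileum of 18 mice was sequenced, 1 library per mouse. The authors aligned reads with STAR to GRCm38 (Ensembl 101) and deposited the counts of uniquely aligned, unambiguous reads per gene from featureCounts, which are the values used here. CPM was computed here from the counts, and was checked against the CPM table that the authors deposited, from which gene names came. The FPKM and moderated log2 CPM values the authors deposited were not used. Reads shared by near-identical genes are lost by such counting.

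Counts were fitted in edgeR 4.0.16 (R 4.3.3) with TMM factors, all 18 libraries in 1 quasi-likelihood fit by genotype without covariates, with Benjamini-Hochberg adjustment over the 13401 genes at 0.05. The other threshold was an unadjusted p under 0.001. The SE is the log2 fold change over the root of F. *Ppara* was also tested by an exact permutation test on CPM. A second contrast took the difference of the steps. The scripts were tested on simulated data.

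Named are genes past the adjusted threshold, the 12 higher and 12 lower with the lowest p, 8 each way for the steps, members of the 34 gene lists (516 genes, 1 unmatched), *Ppara*, *Col1a1*, *Vil1* and *Esr1*. Members and lists were chosen with earlier results of these data known. Some members are not reported here by name. Lists are given as counts and medians without a test. Alternatives were DESeq2 1.42.0, limma-voom (limma 3.58.1), other scalings and filters, covariates, the replicate number as a block, and leaving out libraries. Promoter windows were RefSeq entries of GRCm38.p6.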

Additional observations from a re-analysis of the deposited data

Results flagged for a closer look

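Over 240 tests of 6 libraries of a group for single genes named above and list scores, Dixon's test found 1 library apart in 24, where chance gives about 1 in 20. The tests are not independent, since lists share libraries and genes.

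Homozygous replicate 1 stood apart in 7 of these. It held 19.4 CPM of *Pipox* against 12.5 to 14.7 CPM in the other 5 homozygous libraries, 1.51 CPM of *Ighv5-9-1* against 0.150 to 0.527, 132.9 CPM of *Nr1i2* against 95.03 to 108.8, 3.72 CPM of *Gip* against 0.171 to 0.893 and 112.9 CPM of *Nts* against 57.2 to 72.9. Its drug and bile acid score was 7.05 against 6.78 to 6.87, and its B cell score was 3.91 against 1.38 to 2.02. For all 7 its value lies toward the heterozygous side of the group difference. Homozygous replicate 3 held 62.6 CPM of *Otc* against 73.2 to 76.9 and 26.6 CPM of *Ass1* against 13.5 to 18.3, with a Paneth score of 7.32 against 7.75 to 7.99 and a smooth muscle score of 8.72 against 7.60 to 7.95. Homozygous replicate 4 held 210.6 CPM of *Pcbp2* against 189.1 to 196.7.

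Among heterozygous libraries, replicate 4 held 17.4 CPM of *Slc6a14* against 1.49 to 5.26 and 179.1 CPM of *Aqp1* against 194.8 to 202.4. Replicate 5 held 92.8 CPM of *Esr1* against 75.9 to 82.1, 1360 CPM of *Slc51a* against 956.5 to 1095 and 49.0 CPM of *Slc2a2* against 14.9 to 26.1, with a fibroblast score of 6.65 against 7.26 to 7.61 and an endothelial score of 4.18 against 4.65 to 4.85. Replicate 1 held 73.2 CPM of *Nts* against 97.7 to 107.6 and had a mitochondrial β-oxidation score of 6.28 against 6.46 to 6.57. Replicate 2 had a B cell score of 5.48 against 1.70 to 2.36 and an MHC class II score of 6.83 against 5.21 to 5.67, and replicate 3 a smooth muscle score of 5.11 against 6.91 to 7.61.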

How the results depend on the processing

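The count of 1 gene between the doses at an adjusted p of 0.05 was 12 with DESeq2, 2 without heterozygous replicate 2 and homozygous replicate 1 together, and 0 with DESeq2 size factors in edgeR, with no filter, in a fit of the 12 libraries alone, with the CPM filter over all 18 libraries, with sex, the B cell score or the smooth muscle score as covariate, and with the replicate block. It ran from 0 to 4 when 1 library was left out. The 21 genes at an unadjusted p under 0.001 became 71 with DESeq2, 41 with no filter, 8 with the smooth muscle score and 50 without that pair of libraries, and 8 to 49 with 1 library left out. The 7 genes whose steps differed became 17 with DESeq2, 13 with no filter, 11 where each library had to reach 10 counts, 4 among protein-coding genes, 4 with the replicate block and 11 without the pair, and 6 to 9 with 1 library left out. The 22 at an unadjusted p under 0.001 became 54, 37 and 56 with DESeq2, with no filter and without the pair, and 13 to 44 with 1 library left out. With the replicate block the difference of *Ppara* was 75.3 CPM (exact permutation p = 0.0312, the smallest possible). Same-numbered heterozygous and homozygous libraries did not deviate together (r from -0.44 to 0.39, with 1 of 6 correlating best with its own number). Such correlations cannot show whether the mice were paired, and the labels name no pairing.

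With the smooth muscle score as covariate the list medians were -0.0017 for citrulline, ornithine and polyamine metabolism, 0.032 for ion and water transport, -0.022 for smooth muscle and -0.11 for neuron and glia. The B cell median ran from -1.77 to 0.32 with 1 library left out. The second step of *Cyp4a10* was -0.23 without the pair and ran from -0.089 to 0.53 with 1 library left out, that of *Clec2j* was -0.059 with the B cell score and ran from -0.095 to 0.18, and that of *Cyp2c66* was -0.026 without the pair. The cause of these changes was not tested. Of the values for counts, *Ppara* and list medians under the alternatives, 917 kept their direction and side of the threshold or stayed within the limit set for them, and 50 did not. Depth limits the low genes: 8 counts of *Gip* and 7 of *Ighv5-9-1* were the lowest in homozygous libraries.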
